A study of Mus musculus with 6 samples.

Results

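The genes described here are 44 genes of DNA replication and the S phase of the cell cycle, taken from a fixed list of names: the proteins that license and fire replication origins, the replicative helicase and polymerases, the sliding clamp and its loader, the enzymes that supply nucleotides, and factors that copy chromatin or guard the replication fork. All 44 were among the 20121 genes in the count tables, and all 44 passed the filter on low counts that left 14877 genes for testing. RNA of mouse hearts at postnatal day 14 was sequenced, 3 hearts per group, 1 from each pup, on a mixed background of ICR and C57BL/6. Mutant pups (Myh6-Cre; TRalphaAMI) carried Myh6-Cre, a transgene active in heart muscle cells, besides a knock-in allele whose product Cre turns on, a thyroid hormone receptor alpha that acts as a dominant negative. Control pups (TRalphaAMI) were littermates that had the allele but lacked Cre, so no group carried Cre alone, and effects of Cre and of the receptor cannot be told apart. The study's question was which heart genes respond to thyroid hormone.

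Replication starts at origins bound by the origin recognition complex, where CDC6 and CDT1 load the ring of MCM2 to MCM7 proteins onto DNA in G1, a step that geminin blocks once S phase has begun. CDC45 and the GINS complex then join the ring to form the active helicase, and polymerases alpha, delta and epsilon copy the unwound strands with the help of the clamp PCNA. Many of these genes are transcribed under E2F factors when a cell enters the cycle and are low in resting cells. Mouse heart muscle cells largely leave the cell cycle in the first weeks after birth, while other cells of the heart, such as endothelial cells and fibroblasts, can still divide.

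Of the 44 genes, 27 were higher and 2 were lower in mutant hearts at an adjusted p under 0.05, and 15 did not pass. Over all genes tested, 18.1% were called higher and 19.5% lower by the same rule (quasi-likelihood test of edgeR, p adjusted by Benjamini-Hochberg). The median log2 fold change of the 44 genes, mutant over control, was 0.44, against -0.00 over all genes tested. The fitted log2 fold change was above 0 for 40 of the 44. The largest rises were those of Rrm2, a subunit of ribonucleotide reductase (4.02-fold), Clspn, which encodes the fork checkpoint adaptor claspin (3.04-fold), and Uhrf1, which brings the DNA methyltransferase to copied DNA (2.99-fold). In all, 12 of the 44 were called higher by at least 2-fold, which 4.48% of all genes tested were. The genes called lower were Dut, for the enzyme that removes dUTP, and Rpa1, for the large subunit of the single-strand binding protein, and both falls were small.

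The 3 control values lay entirely below the 3 mutant values for 31 of the 44 genes and entirely above them for 2. Over all genes tested, 24.4% were separated upward in this way and 25.4% downward. When each heart was left out in turn, 21 to 25 of the 44 genes were called higher and 0 to 2 lower. The fitted changes are read against a median gene near 0. With library totals as the only scaling, the median of all genes shifted by 0.28 on the log2 scale. The share of calls that were higher went from 48.1% to 86.1%. In that setting 7479 of the 14877 genes tested were called higher and 1207 lower. The median of the 44 genes was then 0.72, with 38 called higher and 0 lower. The spread behind each p is that between the hearts of different pups.

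**Figure D1:**
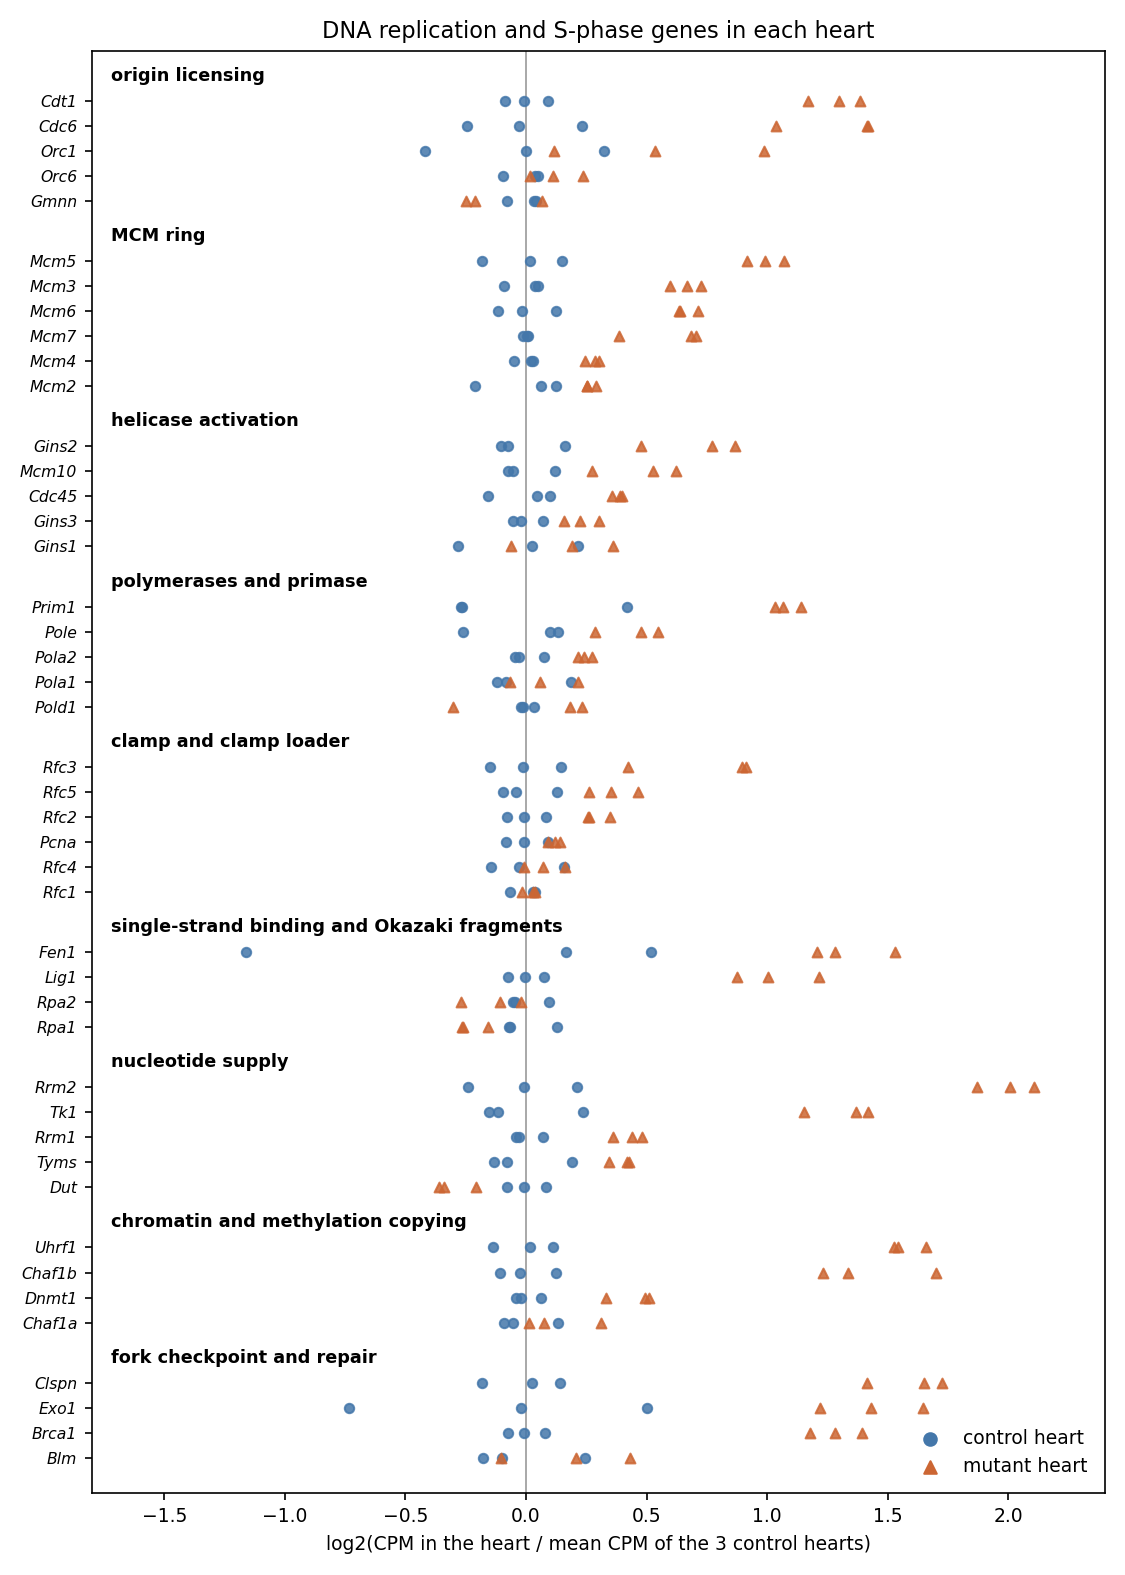
Each row is 1 of the 44 genes, grouped by role, and each point is 1 heart (circles control, triangles mutant) at log2 of its CPM divided by the mean CPM of the 3 control hearts. The triangles lie to the right of all circles for 31 genes and to the left for Dut and Rpa1.

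The promoters of the 44 genes were searched for short words. RefSeq windows on GRCm38.p6 (the mm10 build) run from 250 bases before to 50 after each transcription start, and 37 of the 44 genes had at least 1. The words TTTCCCGC, TTTGGCGC, TTTCGCGC and TTTGCCGC, which are forms of the E2F binding sequence, were sought on both strands. They occurred in 15 of the 37 genes (40.5%), against 2.61% of all 27025 genes with a window and 4.50% of the 11301 of these that were tested here. The share of the 37 genes is that of a list fixed by name. It would be the same however the genes changed in these hearts. Among the genes called higher 11 of 22 held such a word, and among those not called 4 of 13, a difference that was not tested. Dut and Rpa1, the genes called lower, held none in their windows. CCAAT, the word bound by the factor NF-Y, was found in 25 of the 37 genes (67.6%), in 41.1% of all genes and in 42.1% of those tested. AGGTCA, the half-site that thyroid hormone receptors and many other nuclear receptors bind, was found in 5 of the 37 (13.5%) in 18.1% of all genes and in 14.9% of those tested. These are matches of letters in a window, some E2F-type words overlap each other, and a gene with several windows counts once if any of them holds the word.

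The 250 bases before the start are shown for 5 genes chosen by rule, the 3 with the largest rise (Rrm2, Clspn and Uhrf1) and the 2 with the smallest change (Rfc1 and Pold1), and for Mcm5 and Mcm6 of the helicase ring, which were added after their words had been seen. Sequences run 5′ to 3′ on the strand of the gene, and capitals mark the E2F-type words and CCAAT on either strand. The windows lie at chr12:24708004-24708253, plus strand (Rrm2), chr4:126556730-126556979, plus strand (Clspn), chr17:56303087-56303336, plus strand and chr17:56304063-56304312, plus strand (Uhrf1, which has 2 starts), chr5:65335640-65335889, minus strand (Rfc1), chr7:44548816-44549065, minus strand (Pold1), chr8:75109259-75109508, plus strand (Mcm5) and chr1:128359706-128359955, minus strand (Mcm6).
Rrm2: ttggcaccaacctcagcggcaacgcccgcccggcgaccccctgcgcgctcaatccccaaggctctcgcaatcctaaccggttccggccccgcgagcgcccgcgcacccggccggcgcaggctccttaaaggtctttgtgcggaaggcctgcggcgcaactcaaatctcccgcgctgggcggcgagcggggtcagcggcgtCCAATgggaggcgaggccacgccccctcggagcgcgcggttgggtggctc
Clspn: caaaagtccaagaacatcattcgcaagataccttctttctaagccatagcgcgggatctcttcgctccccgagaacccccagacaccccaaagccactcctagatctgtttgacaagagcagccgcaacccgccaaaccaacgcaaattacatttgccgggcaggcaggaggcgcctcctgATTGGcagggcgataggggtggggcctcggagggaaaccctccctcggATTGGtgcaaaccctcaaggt
Uhrf1, window 1: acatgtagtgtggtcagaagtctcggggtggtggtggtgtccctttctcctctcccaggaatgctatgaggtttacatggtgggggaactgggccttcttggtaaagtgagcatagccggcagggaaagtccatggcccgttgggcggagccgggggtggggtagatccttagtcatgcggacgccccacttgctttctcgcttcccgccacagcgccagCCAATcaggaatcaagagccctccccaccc
Uhrf1, window 2: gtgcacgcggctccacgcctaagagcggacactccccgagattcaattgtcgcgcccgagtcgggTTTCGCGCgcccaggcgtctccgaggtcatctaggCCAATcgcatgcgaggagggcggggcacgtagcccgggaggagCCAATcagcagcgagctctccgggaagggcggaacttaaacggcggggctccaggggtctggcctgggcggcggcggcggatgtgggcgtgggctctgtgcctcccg
Rfc1: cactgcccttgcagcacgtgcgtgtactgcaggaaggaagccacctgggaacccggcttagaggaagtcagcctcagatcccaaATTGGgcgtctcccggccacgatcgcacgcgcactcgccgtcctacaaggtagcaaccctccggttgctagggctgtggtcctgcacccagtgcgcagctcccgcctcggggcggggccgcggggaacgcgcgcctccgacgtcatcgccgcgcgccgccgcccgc
Pold1: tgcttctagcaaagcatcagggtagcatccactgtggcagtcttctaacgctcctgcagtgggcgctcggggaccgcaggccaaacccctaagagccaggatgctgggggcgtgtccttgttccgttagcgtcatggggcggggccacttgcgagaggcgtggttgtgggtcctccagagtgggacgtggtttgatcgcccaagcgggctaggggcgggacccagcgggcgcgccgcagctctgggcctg
Mcm5: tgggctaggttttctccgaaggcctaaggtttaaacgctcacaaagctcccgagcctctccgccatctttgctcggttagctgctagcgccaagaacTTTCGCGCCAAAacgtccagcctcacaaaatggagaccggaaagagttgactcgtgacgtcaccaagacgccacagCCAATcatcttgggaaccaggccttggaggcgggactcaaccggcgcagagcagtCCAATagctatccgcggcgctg
Mcm6: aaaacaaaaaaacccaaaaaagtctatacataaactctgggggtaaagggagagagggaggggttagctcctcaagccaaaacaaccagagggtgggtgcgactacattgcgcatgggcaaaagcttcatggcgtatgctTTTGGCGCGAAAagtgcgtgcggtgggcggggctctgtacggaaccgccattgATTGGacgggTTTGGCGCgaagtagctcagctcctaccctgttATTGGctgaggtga

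Rrm2, with the largest rise of the 44, had 1 CCAAT and no E2F-type word in this window. Clspn had 2 CCAAT words before its start and 1 E2F-type word after it. The second Uhrf1 window held 1 E2F-type word and 1 AGGTCA, which is not in capitals. Mcm5 held 2 and Mcm6 3 before their starts, and in each of these promoters 2 of the words share bases in 1 longer run (TTTCGCGCCAAA in Mcm5 and TTTGGCGCGAAA in Mcm6). Rfc1 had 1 CCAAT and no E2F-type word, and Pold1 had an E2F-type word after its start. The fitted log2 fold change of Pold1 was 0.06 ± 0.13 (SE), with mutant hearts on both sides of the control hearts.

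The origin licensing genes split. Cdt1 encodes the factor that brings the MCM ring to origins (ENSMUSG00000006585, mm10 chromosome 8, 122568015 to 122573554, plus strand). Cdt1 measured 1.66, 1.54 and 1.46 CPM in the control hearts and 4.07, 3.50 and 3.83 CPM in the mutant hearts. CPM are counts scaled to the same library size after TMM normalization, and the 3 values of a group are given in the order of replicate 1, 2 and 3. All mutant hearts lay above all control hearts, a rise of 2.45-fold with a log2 fold change of 1.29 ± 0.13 (SE) and edgeR adjusted p = 5.32e-05. Cdc6 stood at 0.281, 0.391 and 0.325 CPM in the control hearts and 0.888, 0.886 and 0.681 CPM in the mutant hearts, from 49 counts in all against 127. Cdc6, the loading ATPase, thus rose 2.41-fold (edgeR adjusted p = 0.00235), with a ratio of summed counts of 2.41 and an exact 95% interval of 1.72 to 3.42 that covers counting error only.

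The other licensing genes did not pass. Orc1 measured 0.510, 0.408 and 0.305 CPM in the control hearts and 0.809, 0.590 and 0.442 CPM in the mutant hearts, and the highest control heart exceeded the lowest mutant heart. Orc1 is the large subunit of the origin recognition complex, and its log2 fold change of 0.60 ± 0.30 (SE) had an edgeR adjusted p = 0.147 at 58 counts in control and 95 in mutant hearts. Its ratio of summed counts was 1.52, with an exact 95% interval of 1.09 to 2.15 that covers counting error only. Gm12743 on the opposite strand shares 10.8% of the exon bases of Orc1. Orc6, another subunit, stood at 4.14 ± 0.226 CPM per kb in control hearts against 0.117 ± 0.0293 for Orc1 (SD, n = 3 each), and Vps35 on the opposite strand shares 6.93% of its exon bases. Orc6 gave 10.6, 9.64 and 10.7 CPM in the control hearts and 10.4, 12.1 and 11.1 CPM in the mutant hearts, with overlapping groups and a log2 fold change of 0.13 ± 0.09 (SE) (edgeR adjusted p = 0.306). Gmnn was read at 13.8, 13.7 and 12.7 CPM in the control hearts and 14.0, 11.6 and 11.3 CPM in the mutant hearts, with overlapping groups. Gmnn encodes geminin, the inhibitor of CDT1, and did not pass either, at -0.13 ± 0.10 (SE) (edgeR adjusted p = 0.352), with a sign that turned positive under library totals (0.16) and on both RPKM scales. Per kilobase of gene length, the level of Cdt1 was 0.0541 ± 0.00177 times that of Gmnn in control hearts and 0.145 ± 0.012 times in mutant hearts (SD, n = 3 each), with no overlap between the groups.

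Most of the MCM ring rose. Of its 6 genes 5 were called higher, and the 3 mutant hearts were above the 3 control hearts for every one of the 6. Mcm5 rose most (ENSMUSG00000005410, chromosome 8, 75109569 to 75128439, plus strand). Mcm5 measured 3.55, 3.89 and 3.09 CPM in the control hearts and 7.36, 6.61 and 6.98 CPM in the mutant hearts, so that each mutant heart was well above the highest control heart. The rise was 1.99-fold, a log2 fold change of 0.99 ± 0.11 (SE) with edgeR adjusted p = 1.34e-04. Mcm6 measured 14.1, 12.8 and 11.9 CPM in the control hearts and 20.1, 20.1 and 21.2 CPM in the mutant hearts, a rise of 1.58-fold (log2 0.66 ± 0.08 (SE), edgeR adjusted p = 1.85e-04). Mcm3 rose 1.58-fold, Mcm7 1.51-fold and Mcm4 1.21-fold. Mcm4 no longer passed when control replicate 3 (edgeR adjusted p = 0.0526) or mutant replicate 2 (0.0596) was left out. Ap4m1 and Cops6 on the opposite strand share 7.25% and 1.45% of the exon bases of Mcm7.

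Mcm2 was the exception. Mcm2 measured 13.01, 13.6 and 10.8 CPM in the control hearts and 14.8, 15.2 and 14.8 CPM in the mutant hearts. The groups did not overlap, but the log2 fold change of 0.26 ± 0.10 (SE) had an edgeR adjusted p = 0.0551, just above the threshold. The gene passed under 8 of 15 alternatives, among them DESeq2 (adjusted p = 0.0459), upper quartile scaling (edgeR, 0.0434) and the fit without control replicate 2 (0.0469).

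Levels within the ring can be compared per kilobase of gene length. Per kb, in control hearts Mcm5 was lowest, at 0.874 ± 0.0995 CPM per kb, and Mcm4 highest, at 3.02 ± 0.0904. The highest gene was 3.17 to 3.79 times the lowest in the 3 control hearts. In mutant hearts Mcm5 was still lowest, at 1.74 ± 0.0932 CPM per kb, and Mcm6 was highest, at 4.36 ± 0.136 (SD, n = 3 for each), and the ratio of highest to lowest was 2.34 to 2.60. On this scale the ratio of these extreme genes was thus smaller in every mutant heart than in any control heart.

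**Figure D2:**
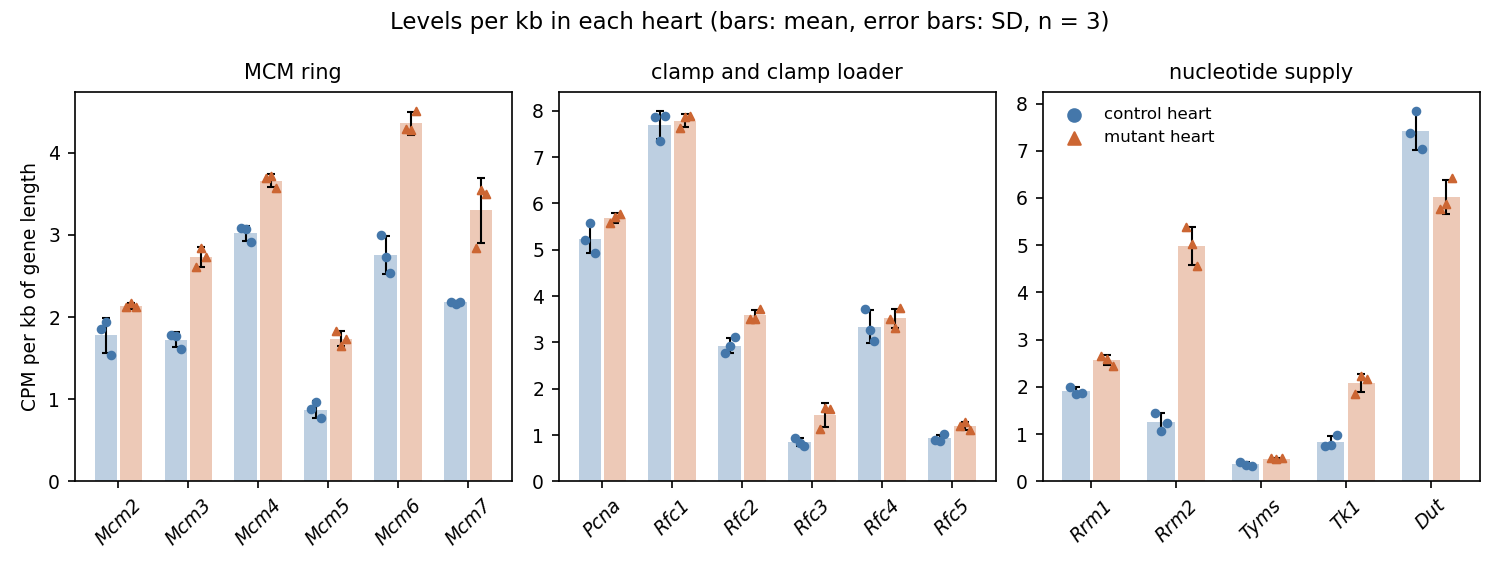
Levels of genes of the MCM ring, the clamp and its loader and nucleotide supply, in CPM per kb of gene length on linear axes that start at 0 and differ between panels. Bars are means, error bars SD over 3 hearts, and points single hearts. Mcm5 is the lowest gene of the ring in both groups. Per kb, Rrm2 passes Rrm1 in mutant hearts only, an order that rests on the gene lengths used and is not seen in CPM.

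Of the 5 genes that activate the helicase 2 were called higher. Gins2, a subunit of the GINS complex, rose most. Gins2 was measured at 1.17, 0.994 and 0.976 CPM in the control hearts and 1.46, 1.91 and 1.79 CPM in the mutant hearts, a rise of 1.65-fold (log2 0.72 ± 0.17 (SE), edgeR adjusted p = 0.00905). Gse1, a gene on the opposite strand, shares 67.3% of the exon bases of Gins2 and rose itself by 0.87 on the log2 scale (edgeR adjusted p = 1.95e-04). The library kit does not mark strand, so the value of Gins2 is uncertain. Cdc45 measured 3.14, 3.02 and 2.62 CPM in the control hearts and 3.75, 3.86 and 3.83 CPM in the mutant hearts, and Cdc45 rose 1.30-fold (edgeR adjusted p = 0.0275). Ufd1 on the opposite strand shares 5.96% of its annotated exon bases. The length behind the Cdc45 counts was 2.26 kb, against 3506 annotated exon bases, so whether the shared bases were counted is not known. The call of Cdc45 was lost without control replicate 2 or 3 or mutant replicate 2 or 3, with edgeR adjusted p of 0.0634 to 0.0906.

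Mcm10, which helps to start the assembled helicase, was low. Mcm10 had 0.740, 0.728 and 0.834 CPM in the control hearts and 0.927, 1.18 and 1.11 CPM in the mutant hearts, without overlap, but its log2 fold change of 0.48 ± 0.18 (SE) did not pass (edgeR adjusted p = 0.0680). Gins3 measured 2.02, 2.06 and 2.20 CPM in the control hearts and 2.33, 2.44 and 2.58 CPM in the mutant hearts, again without overlap and not past the threshold (0.23 ± 0.13 (SE), edgeR adjusted p = 0.187). Gins1 measured 1.58, 1.12 and 1.38 CPM in the control hearts and 1.30, 1.56 and 1.75 CPM in the mutant hearts. For Gins1 the groups overlapped and the log2 fold change was 0.19 ± 0.19 (SE) (edgeR adjusted p = 0.467).

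Of the polymerase and primase genes, the catalytic primase subunit Prim1 rose most (ENSMUSG00000025395, chromosome 10, 128015168 to 128030037, plus strand). Prim1 measured 2.42, 1.51 and 1.51 CPM in the control hearts and 3.71, 3.995 and 3.79 CPM in the mutant hearts. Control replicate 1 was the highest control heart and still below every mutant heart, and the rise was 2.14-fold (log2 1.10 ± 0.18 (SE), edgeR adjusted p = 0.00124). Pola2 gave 11.3, 11.4 and 12.2 CPM in the control hearts and 13.8, 14.1 and 13.5 CPM in the mutant hearts. Pola2, the second subunit of polymerase alpha, rose 1.18-fold (edgeR adjusted p = 0.0293), a call lost without any of 5 single hearts, all but control replicate 3 (edgeR adjusted p of 0.053 to 0.102). Pole, the catalytic subunit of the leading strand polymerase, rose 1.36-fold, and it did not pass when control replicate 2 (edgeR adjusted p = 0.121), mutant replicate 2 (0.101) or mutant replicate 3 (0.111) was left out.

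The catalytic subunits of polymerases alpha and delta did not pass. Pola1 measured 8.31, 6.91 and 6.73 CPM in the control hearts and 8.51, 7.62 and 6.996 CPM in the mutant hearts, with interleaved groups (log2 0.08 ± 0.12 (SE), edgeR adjusted p = 0.636). Pold1 measured 12.5, 12.6 and 12.97 CPM in the control hearts and 10.3, 14.4 and 14.9 CPM in the mutant hearts. For Pold1, mutant replicate 1 was below and the other mutant hearts were above all control hearts, and the log2 fold change was 0.06 ± 0.13 (SE) (edgeR adjusted p = 0.764), which turned to -0.01 without mutant replicate 2 and to -0.05 without mutant replicate 3.

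The clamp gene did not pass, and 3 of 5 genes of its loader rose. Pcna encodes the ring that holds polymerases on DNA (ENSMUSG00000027342, chromosome 2, 132249162 to 132253314, minus strand). Pcna measured 12.55, 13.45 and 11.92 CPM in the control hearts and 13.46, 13.75 and 13.94 CPM in the mutant hearts. The lowest mutant heart exceeded the highest control heart by a narrow margin, and the log2 fold change of 0.12 ± 0.08 (SE) did not pass (edgeR adjusted p = 0.268). The annotation also holds a processed pseudogene of Pcna, Pcna-ps2, with 46 counts over all libraries. Rfc3 and Rfc2 are small subunits of the clamp loader. Rfc3 measured 3.39, 3.04 and 2.77 CPM in the control hearts and 4.10, 5.77 and 5.71 CPM in the mutant hearts, a rise of 1.70-fold (log2 0.77 ± 0.16 (SE), edgeR adjusted p = 0.00384) in which mutant replicate 1 was nearest to the control hearts.

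Rfc2 was found at 17.6, 18.5 and 19.7 CPM in the control hearts and 22.2, 22.2 and 23.6 CPM in the mutant hearts, a rise of 1.22-fold (edgeR adjusted p = 0.0105) that was lost without mutant replicate 3 (edgeR adjusted p = 0.0512). Lat2 on the opposite strand shares 15.1% of the exon bases of Rfc2. Rfc5 rose 1.29-fold, a call lost when any of control replicates 1 and 2 and mutant replicates 1 and 2 was left out (edgeR adjusted p of 0.0518 to 0.115), and Wsb2 on the opposite strand shares 10.7% of its exon bases. Rfc1, the large subunit, had the highest level of the loader per kb, at 7.70 ± 0.305 CPM per kb in control hearts (SD, n = 3). Rfc1 measured 47.6, 44.5 and 47.8 CPM in the control hearts and 46.1, 47.6 and 47.8 CPM in the mutant hearts, with overlapping groups and a log2 fold change of 0.02 ± 0.06 (SE) (edgeR adjusted p = 0.854). Rfc4 had 5.74, 5.04 and 4.66 CPM in the control hearts and 5.41, 5.12 and 5.76 CPM in the mutant hearts, and the groups overlapped (0.08 ± 0.11 (SE), edgeR adjusted p = 0.608). Eif4a2 on the opposite strand shares 12.7% of the exon bases of Rfc4.

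Among genes for single-strand binding and the joining of Okazaki fragments, the ligase rose and the binding protein did not. Lig1 encodes the DNA ligase that seals the lagging strand (ENSMUSG00000056394, chromosome 7, 13277283 to 13311433, plus strand). Lig1 measured 4.26, 3.83 and 4.03 CPM in the control hearts and 7.42, 9.39 and 8.10 CPM in the mutant hearts. The lowest mutant heart was well above the highest control heart, a rise of 2.06-fold (log2 1.04 ± 0.11 (SE), edgeR adjusted p = 1.00e-04). Zswim9 on the opposite strand shares 5.79% of its exon bases. Fen1, the nuclease that trims the fragments, was called higher on few counts, 20 in all control and 54 in all mutant hearts, with 3 in the lowest control library. Fen1 stood at 0.153, 0.195 and 0.0610 CPM in the control hearts and 0.395, 0.315 and 0.331 CPM in the mutant hearts. Its ratio of summed counts was 2.51, with an exact 95% interval of 1.48 to 4.42, and its edgeR adjusted p was 0.0233, or 0.0662 with DESeq2. Leaving out control replicate 3 or mutant replicate 1 or 3 gave edgeR adjusted p of 0.0512 to 0.0686. Gm10143 on the opposite strand shares 78.8% of the exon bases of Fen1, so the level counted for Fen1 is uncertain, and how reads in shared bases were assigned is not given in the sources used here.

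Rpa1 fell slightly. Rpa1 measured 67.5, 67.7 and 77.4 CPM in the control hearts and 59.0, 59.1 and 63.6 CPM in the mutant hearts, the highest level per kb of the 44 genes, at 12.6 ± 1.01 CPM per kb in the control group and 10.8 ± 0.464 in the mutant group (SD, n = 3 each). The fall was 0.23 ± 0.07 (SE) on the log2 scale (edgeR adjusted p = 0.0357), with all mutant hearts below all control hearts. The gene no longer passed with upper quartile scaling (0.052) or when any of control replicates 2 and 3 and mutant replicates 1 and 2 was left out (edgeR adjusted p of 0.051 to 0.127), and with library totals alone the change was 0.06, of the other sign. Rpa2 measured 16.2, 16.1 and 17.8 CPM in the control hearts and 13.9, 15.5 and 16.5 CPM in the mutant hearts. Rpa2, the middle subunit, did not pass, with overlapping groups and a log2 fold change of -0.13 ± 0.09 (SE) (edgeR adjusted p = 0.276) that was 0.16 with library totals alone.

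All 5 genes of nucleotide supply passed, 4 as higher and 1 as lower. Rrm2 makes the small subunit of ribonucleotide reductase, which turns ribonucleotides into the building blocks of DNA and is made mainly in cycling cells (ENSMUSG00000020649, chromosome 12, 24708241 to 24714146, plus strand). Rrm2 measured 4.03, 2.95 and 3.46 CPM in the control hearts and 14.98, 14.0 and 12.7 CPM in the mutant hearts. The lowest mutant heart was far above the highest control heart, a rise of 4.02-fold with a log2 fold change of 2.01 ± 0.13 (SE) and edgeR adjusted p = 3.06e-06. Rrm1, the large subunit, is more steadily made, and rose 1.35-fold (edgeR adjusted p = 8.51e-04). Per kb, Rrm2 stood at 0.723, 0.571 and 0.665 times Rrm1 in the control hearts and at 2.02, 1.95 and 1.86 times in the mutant hearts. On this scale Rrm2 was therefore below Rrm1 in each control heart and above it in each mutant heart. In CPM, Rrm1 stayed the higher in each mutant heart, at 29.5, 28.6 and 27.1 against 14.98, 14.0 and 12.7. The order per kb rests on gene lengths of 11.1 kb for Rrm1 and 2.79 kb for Rrm2. Rrm2b, the small subunit of resting cells, is not among the 44 genes and had a log2 fold change of 0.03 ± 0.10 (SE) (edgeR adjusted p = 0.809).

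Tk1 encodes the cytosolic thymidine kinase of S phase. Tk1 measured 3.93, 4.03 and 5.15 CPM in the control hearts and 9.71, 11.7 and 11.3 CPM in the mutant hearts, a rise of 2.49-fold (log2 1.32 ± 0.13 (SE), edgeR adjusted p = 4.48e-05). Afmid on the opposite strand shares 1.597% of the exon bases of Tk1 and rose by 1.78 on the log2 scale. Tyms, the thymidylate synthase, rose 1.32-fold at the margin (edgeR adjusted p = 0.0384, and adjusted p = 0.0698 with DESeq2), and it did not pass without any of 5 single hearts, all but control replicate 1. Dut removes dUTP, a precursor that would put uracil into DNA, and went the other way. Dut measured 17.9, 19.0 and 17.0 CPM in the control hearts and 14.0, 14.2 and 15.6 CPM in the mutant hearts, with every mutant heart below every control heart. The fall was 0.30 ± 0.08 (SE) on the log2 scale (edgeR adjusted p = 0.0139). Dut no longer passed when control replicate 2 (edgeR adjusted p = 0.0636) or mutant replicate 2 (0.0563) was left out, and with library totals alone the change was -0.02 (0.882).

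Of the genes that copy chromatin marks, 3 of 4 rose. Uhrf1 recognises half-methylated DNA behind the fork (ENSMUSG00000001228, chromosome 17, 56303321 to 56323486, plus strand). Uhrf1 measured 1.58, 1.42 and 1.69 CPM in the control hearts and 4.56, 4.51 and 4.93 CPM in the mutant hearts. The rise was 2.99-fold (log2 1.58 ± 0.12 (SE), edgeR adjusted p = 1.24e-05), and the groups were far apart. Its partner Dnmt1, the maintenance methyltransferase, rose 1.36-fold (edgeR adjusted p = 8.45e-04) from a higher level. Per kb, Uhrf1 was 0.0997 ± 0.0056 times Dnmt1 in the control group and 0.219 ± 0.0137 times in the mutant group (SD, n = 3 each). Chaf1a and Chaf1b are subunits of the complex that places new histones. Chaf1b measured 0.536, 0.568 and 0.630 CPM in the control hearts and 1.46, 1.36 and 1.88 CPM in the mutant hearts, a rise of 2.70-fold (edgeR adjusted p = 4.17e-04). Chaf1a measured 2.70, 2.38 and 2.32 CPM in the control hearts and 3.06, 2.60 and 2.49 CPM in the mutant hearts. The groups of Chaf1a overlapped (0.14 ± 0.14 (SE), edgeR adjusted p = 0.456). Ubxn6 on the opposite strand, counted at 70.0 ± 1.77 CPM in control hearts (SD, n = 3), shares 52.5% of the annotated exon bases of Chaf1a. The length behind the Chaf1a counts was 3.33 kb, against 8854 annotated exon bases. Whether the shared bases were counted is therefore not known, and the value of Chaf1a is uncertain.

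The fork checkpoint and repair genes included 3 of 4 that rose, each from below 1 CPM in the control hearts. Clspn carries the checkpoint signal from a stalled fork (ENSMUSG00000042489, chromosome 4, 126556935 to 126593903, plus strand). Clspn measured 0.791, 0.728 and 0.630 CPM in the control hearts and 2.37, 1.91 and 2.25 CPM in the mutant hearts, a rise of 3.04-fold (edgeR adjusted p = 8.31e-05). Brca1 measured 0.791, 0.746 and 0.712 CPM in the control hearts and 1.70, 1.97 and 1.82 CPM in the mutant hearts. Brca1, which protects forks and takes part in repair by recombination, rose 2.44-fold (log2 1.29 ± 0.16 (SE), edgeR adjusted p = 2.08e-04) without overlap. Exo1, an exonuclease, rose 2.77-fold (edgeR adjusted p = 0.00393) on 38 counts in control and 115 in mutant hearts, a ratio of summed counts of 2.81 with an exact 95% interval of 1.93 to 4.17. Blm, a helicase, did not pass. Blm measured 4.26, 3.18 and 3.36 CPM in the control hearts and 4.85, 4.15 and 3.35 CPM in the mutant hearts, and mutant replicate 3 was below control replicate 1 (0.20 ± 0.17 (SE), edgeR adjusted p = 0.375).

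Within the 44 genes, those that were low in control hearts had the larger rises. The 22 with the lower control levels, 0.0319 to 0.893 CPM per kb, had a median log2 fold change of 0.88 and 15 called higher. The 22 with the higher levels, 0.928 to 12.6 CPM per kb, had a median of 0.27 and 12 called higher. Across the 44 genes the Spearman correlation of control level and log2 fold change was -0.70, and across all 14877 genes tested it was -0.24. These are descriptions across genes of the same 6 libraries, the control level enters both quantities, and genes are not independent replicates.

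**Figure D3:**
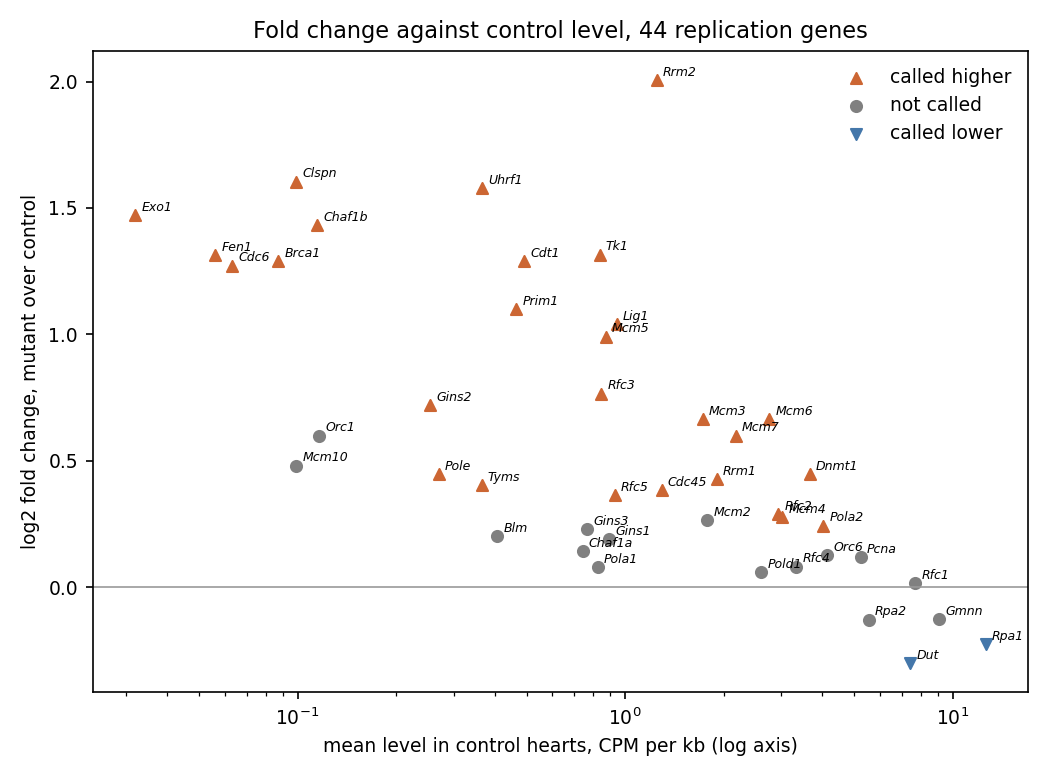
Log2 fold change, mutant over control, against the mean level in the 3 control hearts in CPM per kb on a log axis, 1 point per gene for the 44 genes. Exo1, Clspn and Chaf1b lie at the upper left, and the most abundant genes, Rpa1, Gmnn, Rfc1 and Dut, lie at or below 0.02.

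The change in total transcript was smaller than the median fold. Summed over the 44 genes, CPM were 395 ± 7.09 in control hearts and 472 ± 11.1 in mutant hearts (SD, n = 3 each), a ratio of 1.20. Rpa1 and Rfc1, which did not rise, have the most counts of the 44. The summed MCM ring went from 56.0 ± 3.37 to 80.6 ± 2.15 CPM, and the clamp and loader from 90.4 ± 1.601 to 99.8 ± 2.61 CPM (SD, n = 3 each). Among the 3 mutant hearts alone, replicate 1 was the highest for 13 of the 44 genes, replicate 2 for 15 and replicate 3 for 16, and replicate 1 was the lowest for 22.

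A list of 60 further genes of replication, fork protection and nucleotide supply was read in the same way, and all 60 were tested. Of these, 22 were higher, 2 lower and 36 did not pass, with a median log2 fold change of 0.12. Over all genes tested, 18.1% were called higher and 19.5% lower. Among the rises with the smallest p-values were those of Top2a, the topoisomerase that untangles copied DNA (3.58-fold, edgeR adjusted p = 3.03e-05), the nuclease and helicase gene Dna2 (1.96-fold, edgeR adjusted p = 2.05e-04) and Mcm9, a relative of the MCM ring genes (1.501-fold, edgeR adjusted p = 6.22e-04). Reads of Mcm9 overlap Asf1a on the opposite strand over 19.2% of its exon bases. The other subunits of the origin recognition complex, Orc2, Orc3, Orc4 and Orc5, did not pass, at log2 fold changes of -0.14, -0.12, -0.03 and 0.03. With library totals alone, 44 of the 60 were called higher and 1 lower, beside 7479 and 1207 of all 14877 genes tested. Their median was then 0.41, against 0.28 for all genes.

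One further gene fell steeply. Ung, the glycosylase that cuts uracil out of DNA, measured 19.5, 18.1 and 14.7 CPM in the control hearts and 3.87, 3.40 and 4.53 CPM in the mutant hearts. All mutant values were below all control values, and the gene was 4.43-fold lower (log2 -2.15 ± 0.14 (SE), edgeR adjusted p = 3.59e-06). The other gene of the list called lower was Rnaseh2c, a subunit of the nuclease that removes ribonucleotides from DNA, at -0.40 ± 0.11 (SE) (edgeR adjusted p = 0.0161), and Kat5 on the opposite strand shares 24.8% of its exon bases.

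**Figure D4:**
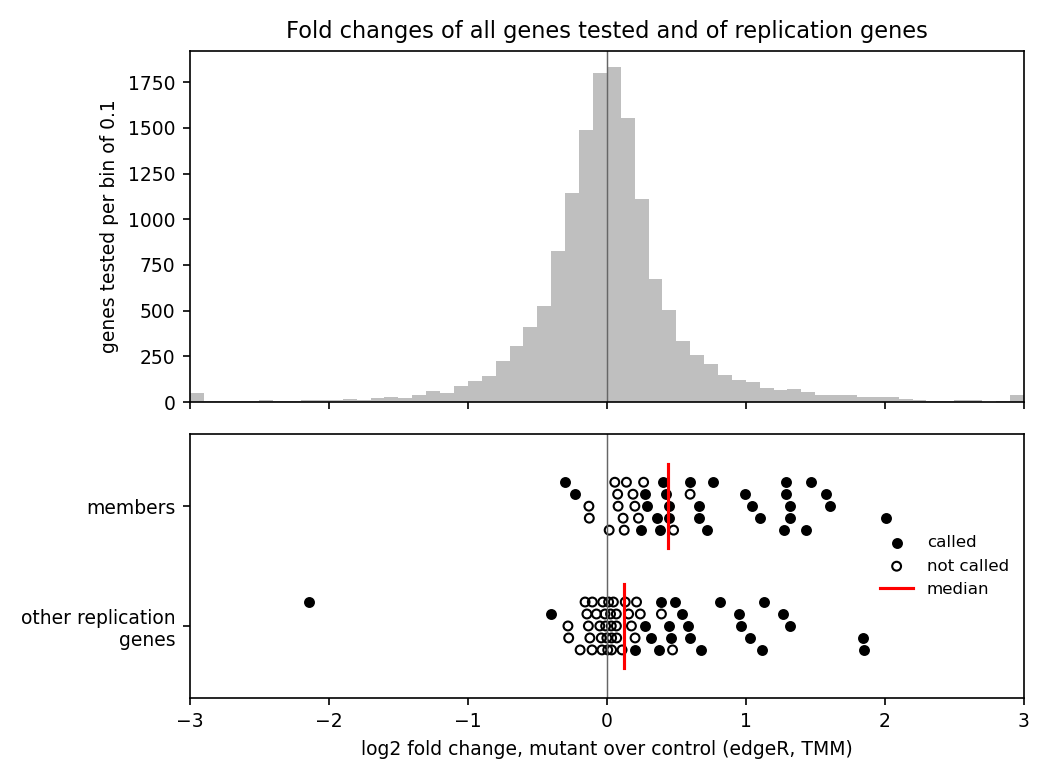
Top, number of genes tested per bin of 0.1 in log2 fold change, mutant over control, with changes beyond 3 placed in the end bins. Bottom, the 44 members and the 60 further replication genes, filled where called and open where not, with medians of 0.44 and 0.12 as red bars, and the isolated point at -2.15 is Ung.

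The libraries held 43314706 to 62095277 counts, and those of control hearts gave 22.3% to 24.8% of counts to the mitochondrial genome against 16.7% to 18.8% in mutant hearts. Correlations of log2 CPM were 0.992 to 0.995 within groups and 0.970 to 0.974 between them. Counts per gene do not separate the altered from the normal Thra transcript, and Thra was 1.78-fold higher in mutant hearts. Mki67, a marker of cycling cells that is not a member, measured 7.55, 7.03 and 4.84 CPM in the control hearts and 19.0, 19.9 and 14.1 CPM in the mutant hearts, a rise of 2.73-fold (edgeR adjusted p = 1.88e-04).

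In whole hearts, more cycling cells and more RNA of these genes per cell cannot be told apart, nor can the cells that made it. Heart muscle markers were abundant in both groups, with Tnnt2 at a log2 fold change of -0.05 and Myh6, whose promoter drives the Cre transgene, at -3.28, and 5 of 8 were lower and 0 higher. Their summed level was 74474 to 83336 CPM in control and 37882 to 40188 CPM in mutant hearts. Without Myh6, left out after its value was seen, the other 7 summed to 39343 to 44415 CPM in control and 34370 to 35867 CPM in mutant hearts. For the lists that follow, brackets give log2 fold changes of the 2 markers with the highest mean CPM, called or not. Endothelial markers were lower for 5 of 8 and higher for 0 (Cdh5 -0.17, not called, and Pecam1 -0.21, called lower). Their summed level was 1561 to 1682 CPM in control and 1334 to 1437 CPM in mutant hearts. Fibroblast markers were higher for 3 of 8 and lower for 0 (Col3a1 0.12, not called, and Dcn 0.30, called higher), with 2635 to 2977 and 3018 to 3379 CPM. Of the smooth muscle and pericyte markers 1 of 8 was higher and 3 lower (Rgs5 -0.26, Abcc9 -0.24), with 2364 to 2592 and 2115 to 2216 CPM. The 1 called higher was Cnn1 (1.81), with a mean of 0.790 CPM in control and 2.81 CPM in mutant hearts, and Acta2 (0.32) was not called. Macrophage markers were lower for 6 of 8 and higher for 0 (Csf1r -0.65, Mrc1 -0.64), with 117 to 131 and 77.1 to 79.7 CPM.

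Of 8 lymphocyte markers 5 could be tested, with 1 lower and 4 not called (Ptprc -0.50, called lower, and Ms4a1 -0.50, not called). Ptprc is also made by other white blood cells, and in control hearts it gave 5.11 of the mean sum of 8.72 CPM. All 8 summed to 8.42 to 8.95 CPM in control and 5.43 to 7.81 CPM in mutant hearts. The T cell genes Cd3e and Cd3d were at or below 0.138 CPM in every heart. Of 8 erythroid markers 6 could be tested and 0 were called by edgeR, with 0 at an unadjusted p under 0.05 and 0 called by DESeq2 (Hbb-bs -0.43, Hba-a1 -0.42), with 158 to 245 and 91.6 to 243 CPM and Klf1 near 0. Of 6 epicardial markers 3 could be tested, with 1 higher (Tbx18 0.43) and 1 lower (Wt1 -0.36), 18.6 to 20.7 against 20.3 to 21.8 CPM, and Upk1b at 0 in 2 hearts. Fibroblast markers were the only list here with more members called higher than lower. Over all genes tested, 18.1% were called higher and 19.5% lower, and no difference between these short lists was tested. The part of any of these cell types in the rise of the replication genes was not tested.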

How the data were processed

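RNA sequencing counts of 3 control and 3 mutant hearts were used, 1 library per pup. The authors deposited raw counts (whole numbers, by Ensembl gene) and RPKM values made from a gene length and library total. The submitters' processing notes name featureCounts 1.5.1, STAR 2.5.2b and cutadapt 1.9 with the build mm10. Annotation, strand setting and treatment of multiply mapped reads: not given in the sources used here. Per the labels' protocols, the kit was TruSeq RNA v2, which does not mark strand.

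Symbols came from GENCODE M21 (20081 of 20121 identifiers matched). Counts were filtered with filterByExpr, which removed 5244 genes, scaled by TMM and tested with edgeR 4.0.16 in R 4.3.3 (quasi-likelihood F test, group as the only term, Benjamini-Hochberg over 14877 genes, threshold 0.05). The SE is the log2 fold change divided by the square root of F. Levels per kb use the gene length implied by count and RPKM (median 1.01 times the exon length). For Cdc45, Chaf1a and Pola2 this length was much shorter, at 2.26, 3.33 and 2.89 kb against 3506, 8854 and 8294 exon bases. The edgeR fit was also run on simulated data in which far fewer genes changed than were called here. That run does not show how the fit behaves under shifts as broad as these. Alternatives used DESeq2 1.42.0, other scalings, no filter, limma 3.58.1 on log2(RPKM + 1) and log2(RPKM + 0.1), a replicate block, no mitochondrial genes and leaving out each heart.

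Members, lists and tests were chosen with earlier results of these data known. Values per heart are given for the 2 called members with the smallest adjusted p in each role group and for members not called or lower; from the further genes, the 4 called with the smallest adjusted p in each direction, 1 of which is not reported here; from marker lists, the 2 with the highest mean CPM. Orc2 to Orc5, Rrm2b, Cnn1, Acta2 and genes on opposite strands were named after their values were seen.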

Additional observations from a re-analysis of the deposited data

How the results depend on the processing

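Of the 27 members called higher, 19 were called so under all 15 alternatives. The median log2 fold change of all genes was 0.28, 0.17 and 0.26 with library totals only, log2(RPKM + 1) and log2(RPKM + 0.1), of which the RPKM settings also change the test and add a pseudocount. In that order of settings, all genes called higher were 7479, 7349 and 7391 and lower 1207, 1215 and 1221. Members called lower were 0 in each, the median of the members was 0.72, 0.29 and 0.57, and further replication genes were 44, 41 and 43 higher and 1 lower. The log2 fold changes of Rpa1 (0.059, 0.054 and 0.059), Rpa2 (0.16, 0.13 and 0.15) and Gmnn (0.16, 0.14 and 0.15) changed sign in the same settings; the cause was not tested. Upper quartile scaling left 1 member lower. When each heart was left out, 0 to 2 members and 1 to 3 further genes were lower. Signs also turned for Rfc1 (-0.018 to 0.034 over the hearts left out, below 0 without control replicate 2 and, at -0.00, mutant replicate 3) and Pold1 (-0.047 to 0.21, below 0 without mutant replicate 2 or 3). The labels name no pairing of the hearts. Correlations of deviations for the same replicate number were 0.155, -0.050 and 0.096, which with 3 hearts per group cannot settle whether the numbers pair them. With a replicate block, 28 members were higher and 2 lower, Mcm2 among the first (edgeR adjusted p = 0.0338), and 6319 genes were called in all, and not every heart correlated best with its own number. Counts were few for Fen1, Cdc6, Exo1 and Orc1, at 20 to 58 over the control hearts. Leaving out a heart leaves 2 against 3.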
